A study of Mus musculus with 9 samples.

Results

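Blood clotting and its control in the vessel wall were followed through 8 genes: Vwf, F8, F3, Tfpi, Thbd, Procr, Plat and Plau. They were chosen by a list of gene names and not by their values, and each was read from the probe sets that name it alone on the array. All 8 were found among 18194 genes so named, and 6 of them passed the filter on dim values that 12009 genes passed. Expression was measured on short oligonucleotide arrays, 1 array per sample, in 3 groups of 3 mouse brain samples labelled as biological repeats. The groups were microvascular fragments (small pieces of brain vessels) of adults aged 1 year, fragments of embryos at embryonic day 18.5, and embryonic brain tissue of that day without the fragments, called rest of brain. The adults, 2 males and 1 female, were C57/SV129 (mixed background), while both embryonic groups were of the NMRI strain with no sex given. Strain, age and the RNA extraction kit changed together between adult and embryonic samples, so they cannot be told apart. Replicate 3 of rest of brain carries another embryonic day in its description than in its title and was used as titled. The sources used here do not state whether a sample came from 1 animal or from pooled animals, or how fragments were isolated.

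Clotting starts when tissue factor, the product of F3, meets blood. Endothelium holds it back with tissue factor pathway inhibitor (Tfpi), with thrombomodulin (Thbd), which turns thrombin into an activator of protein C, and with the endothelial protein C receptor (Procr), which presents protein C. It also stores von Willebrand factor (Vwf), which tethers platelets and carries clotting factor VIII (F8). Plat and Plau encode the activators that turn plasminogen into plasmin, the enzyme that dissolves fibrin. In brain, tissue factor is known mainly from astrocytes and from cells around vessels, and the tissue-type activator is made by neurons as well as by endothelium.

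The genes fell into different patterns across the samples. Vwf and Procr were far higher in fragments of either age than in rest of brain. Thbd was highest in adult fragments, Tfpi in embryonic fragments, and Plat was higher in adult fragments than in either embryonic group. F3 was low in embryonic fragments alone, and F8 and Plau lay at background on every array.

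The start regions of F3, Procr and Tfpi are shown because F3 was lower, and Procr and Tfpi were higher, in embryonic fragments than in rest of brain. The sequences are from a table of RefSeq start regions (GRCm38.p6) supplied for this report, and that table held 4 of the 8 genes. Each sequence runs 5′ to 3′ from 250 bases before to 50 bases after a transcript start. Capitals mark exact matches, on either strand, to 6 short motifs. Ets factors were searched as AGGAAG and Klf factors by the shorter letters CACCC. Sox factors were searched as ACAAT and AP-1 factors by the letters TGANTCA. For Gata factors the letters were AGATAA and for the TATA box TATAAA. The F3 region lies at chr3:121723287-121723586 on the plus strand, and that of Procr at chr2:155750967-155751266 on the plus strand. Tfpi has a pair of starts in the table, at chr2:84476710-84477009 and chr2:84474125-84474424, both on the minus strand.
F3: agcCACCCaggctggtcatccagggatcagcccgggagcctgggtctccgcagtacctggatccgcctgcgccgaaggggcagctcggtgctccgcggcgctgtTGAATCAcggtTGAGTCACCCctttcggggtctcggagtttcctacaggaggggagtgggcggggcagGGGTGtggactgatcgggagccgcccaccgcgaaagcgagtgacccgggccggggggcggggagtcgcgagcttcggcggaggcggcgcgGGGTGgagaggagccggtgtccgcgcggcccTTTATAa
Procr: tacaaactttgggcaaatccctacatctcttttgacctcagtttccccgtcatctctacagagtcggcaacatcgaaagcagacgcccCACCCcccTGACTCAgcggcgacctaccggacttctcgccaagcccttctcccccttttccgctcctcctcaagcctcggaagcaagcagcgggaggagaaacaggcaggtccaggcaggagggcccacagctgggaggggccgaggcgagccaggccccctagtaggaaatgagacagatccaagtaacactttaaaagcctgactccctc
Tfpi, start 1: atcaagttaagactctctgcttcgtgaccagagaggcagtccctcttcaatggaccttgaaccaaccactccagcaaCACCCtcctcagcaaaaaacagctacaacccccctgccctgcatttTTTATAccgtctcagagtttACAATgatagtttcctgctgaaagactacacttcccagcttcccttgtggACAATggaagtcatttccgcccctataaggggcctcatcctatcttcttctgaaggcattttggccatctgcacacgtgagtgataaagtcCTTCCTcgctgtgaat
Tfpi, start 2: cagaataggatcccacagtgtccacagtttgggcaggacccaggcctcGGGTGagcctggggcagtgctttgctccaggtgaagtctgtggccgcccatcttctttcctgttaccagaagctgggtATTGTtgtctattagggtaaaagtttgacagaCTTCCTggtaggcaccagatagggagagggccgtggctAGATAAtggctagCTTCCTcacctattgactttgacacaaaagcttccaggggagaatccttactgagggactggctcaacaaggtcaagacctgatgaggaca

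The F3 region held 2 AP-1 matches, which begin at positions -146 and -135 counted from the start site, and 4 CACCC matches. The CACCC at -130 overlaps the nearer AP-1 match. Procr held 1 AP-1 match, at -154, and 1 CACCC at -162. An AP-1 match occurs in 7.81% and a CACCC in 57.5% of all 32851 regions of this length in the table. Ets matches were in the Tfpi regions, 1 at the first start and 2 at the other, against 35.4% of all regions with any. A Sox match, present in 31.0% of all regions, occurred 2 times at the first Tfpi start and 1 time at the other. A Gata match, in 11.2% of all regions, was in the region of the other Tfpi start. A TATA box match, in 13.6%, was in the regions of F3 and of the first Tfpi start. These lie on the opposite strand, at position 44 after the F3 start site and at -127 for Tfpi. Each Tfpi region also held 1 CACCC match. These matches describe the letters of these windows and are not binding sites shown by the arrays.

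Values are on a log2 intensity scale made with GCRMA, which corrects for background and normalizes the arrays, and a value under 4 was taken as background. The arrays had medians of 3.58 to 3.67 over 45101 probe sets. The number of arrays limits the precision. Endothelial markers were checked first: the summed level of 10 of them was 16.7 to 16.9 on adult fragment arrays, 16.8 to 17.0 on embryonic fragment arrays and 8.83 to 9.59 on those of rest of brain (log2 of the sum). Pecam1, Emcn, Tie1 and Icam2 lay under 4 on every array of rest of brain. The summed level of 6 neuronal markers ran the other way, at 5.57 to 6.75 in adult fragments, 9.50 to 10.1 in embryonic fragments and 14.6 to 15.1 in rest of brain. In such samples, fewer cells of a type and less RNA per cell cannot be told apart.

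**Figure D1:**
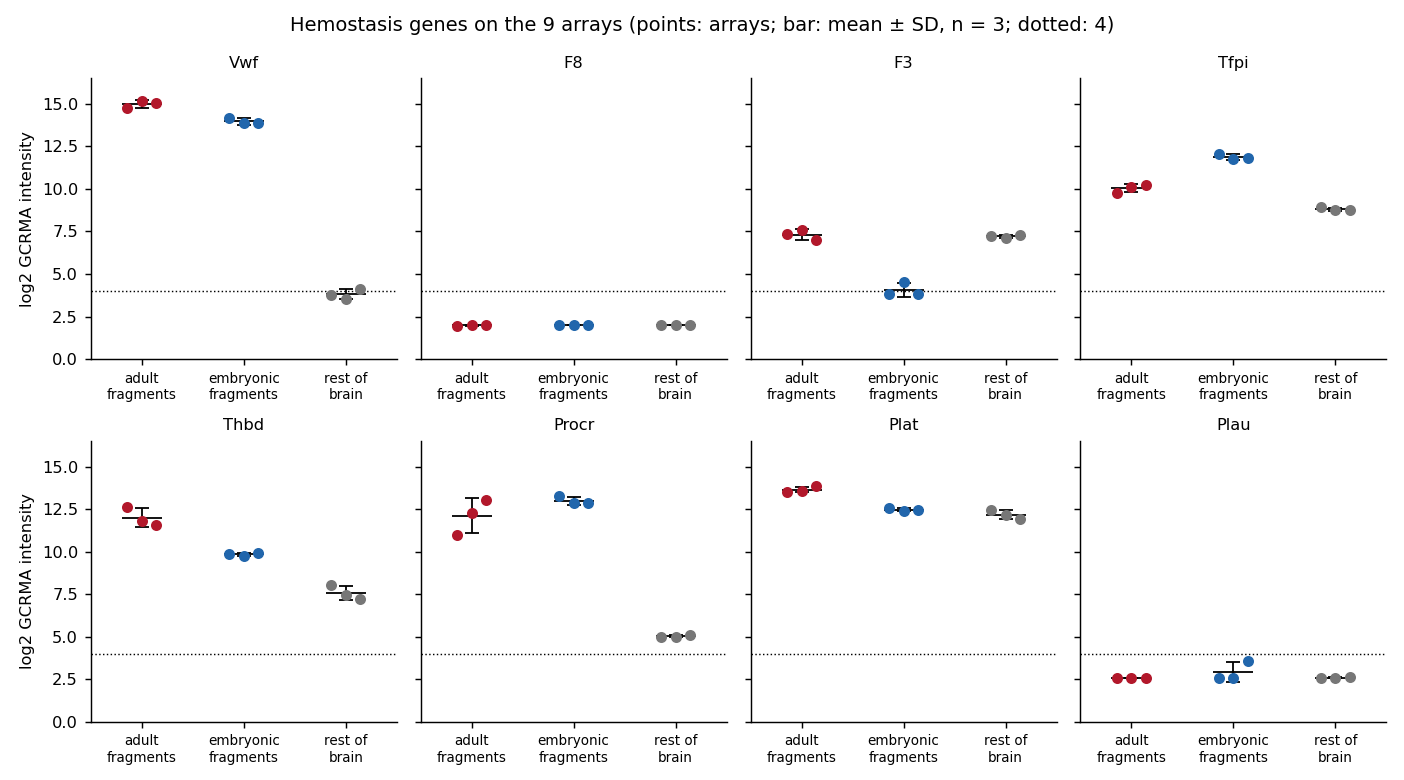
Log2 GCRMA intensity of the 8 genes on the 9 arrays, with adult fragments, embryonic fragments and rest of brain from left to right; points are arrays, bars the mean ± SD (n = 3), and the dotted line a value of 4. Vwf and Procr lie far above rest of brain in both kinds of fragments, F3 is near 4 in embryonic fragments alone, and F8 and Plau are under 4 on every array.

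Vwf, the platelet tether and carrier of factor VIII, had values of 14.76, 15.17 and 15.07 in adult fragments, 14.19, 13.87 and 13.86 in embryonic fragments, and 3.78, 3.52 and 4.13 in rest of brain. The groups did not overlap, and rest of brain lay under 4 on 2 of its 3 arrays. Embryonic fragments exceeded rest of brain by 10.16 ± 0.19 (log2 difference ± SE, limma adjusted p = 1.01e-09), a size that leans on background values and came to 9.06 with an offset of 16 added on the linear scale. Vwf was 2.04-fold higher in adult than in embryonic fragments (15.00 ± 0.21 against 13.97 ± 0.19, SD, n = 3 each, limma adjusted p = 0.00159). Platelets carry the protein too. Of the 7 platelet and megakaryocyte markers on the array, Itga2b, Gp9, Gp5 and Treml1 lay under 4 on every array of all 3 groups, and 3 passed the filter. The chemokine Pf4 was higher in embryonic fragments than in rest of brain by 3.71 on the log2 scale (limma adjusted p = 1.83e-07), the direction of Vwf, and lower in adult than in embryonic fragments by -4.52 (limma adjusted p = 1.98e-07), the other direction. Ppbp lay under 4 on every array of rest of brain and had values of 3.80, 5.77 and 8.45 in embryonic fragments. The embryonic mean was at least 4.01-fold higher (limma adjusted p = 0.0219), though 1 of its 3 arrays lay under 4 too. Gp1bb was lower in embryonic fragments than in rest of brain by -1.66 and lower in adult than in embryonic fragments by -2.49. The summed level of the 7 markers was 8.66 to 9.11 in adult fragments, 12.9 to 13.6 in embryonic fragments and 10.2 to 10.3 in rest of brain (log2 of the sum). In embryonic fragments that sum follows Pf4 alone, which had values of 12.87, 13.36 and 13.52 there, so it does not measure these markers as a set. Pf4 averaged 8.73 in adult fragments, 13.25 in embryonic fragments and 9.54 in rest of brain. F13a1, taken up below with macrophage markers, averaged 7.90, 13.85 and 9.49 in that order. The part of macrophage RNA in the Pf4 values was not tested. The part of platelet RNA in the Vwf values was not tested.

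F8, the clotting factor that Vwf carries, had values of 1.97 to 1.98 in adult fragments, 1.97 to 1.98 in embryonic fragments and 1.97 to 2.001 in rest of brain. Its single probe set thus lay at background in all groups, and no comparison was made.

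F3, the gene of tissue factor, had values of 7.37, 7.59 and 6.995 in adult fragments, 3.80, 4.55 and 3.85 in embryonic fragments, and 7.25, 7.11 and 7.28 in rest of brain. Embryonic fragments stood below both other groups with no overlap and lay under 4 on 2 of 3 arrays, while adult fragments and rest of brain overlapped. F3 was 8.86-fold lower in embryonic fragments than in rest of brain (4.06 ± 0.42 against 7.21 ± 0.09, limma adjusted p = 2.45e-06). It was 9.54-fold higher in adult than in embryonic fragments (7.32 ± 0.30 against 4.06 ± 0.42, limma adjusted p = 5.56e-06). With the offset of 16, the log2 difference from rest of brain was -2.32 in place of -3.15, and that between the ages 2.41 in place of 3.25. Between adult fragments and rest of brain the difference was 0.11 (95% interval -0.41 to 0.62, limma adjusted p = 0.686).

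Astrocyte markers were set beside F3. Of 5 tested markers, all 5 were lower in embryonic fragments than in rest of brain (median log2 difference -4.79), and 4 were higher and 1 lower in adult than in embryonic fragments (median 2.37). Between adult fragments and rest of brain, where F3 was not called, 1 was higher and 4 were lower (median -2.42). Over all tested genes 37.2% were called lower in embryonic fragments than in rest of brain. The shares called higher and lower were 27.4% and 29.7% between the ages, and 33.1% and 42.9% between adult fragments and rest of brain. Slc1a2, the main glutamate transporter of astrocytes, averaged 12.35 ± 0.48 in adult fragments, 3.55 ± 1.56 in embryonic fragments and 10.29 ± 0.68 in rest of brain. Aldh1l1, a folate enzyme of astrocytes, averaged 5.19 ± 1.25 in adult fragments, 7.26 ± 0.73 in embryonic fragments and 11.60 ± 0.30 in rest of brain, and was the marker lower in adult fragments. The summed level of the 6 markers on the list was 12.6 to 13.3 in adult fragments, 9.06 to 10.2 in embryonic fragments and 13.6 to 14.1 in rest of brain (log2 of the sum). Gfap was under 4 on every embryonic fragment array. The summed level of 4 oligodendrocyte markers was also lowest in embryonic fragments, at 10.2 to 10.5 in adult fragments, 6.54 to 8.05 in embryonic fragments and 10.7 to 11.7 in rest of brain. The part of glial RNA in the F3 values was not tested.

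**Figure D2:**
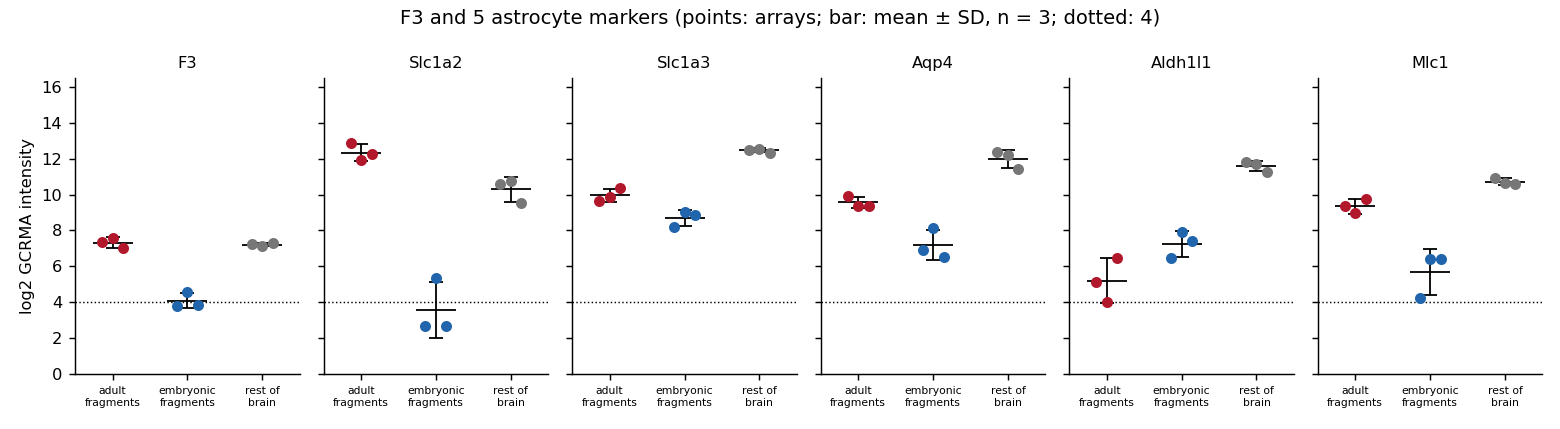
Log2 GCRMA intensity of F3 and of the 5 astrocyte markers that passed the filter, with adult fragments, embryonic fragments and rest of brain from left to right; points are arrays, bars the mean ± SD (n = 3), and the dotted line a value of 4. F3, Slc1a2, Slc1a3, Aqp4 and Mlc1 have their lowest mean in embryonic fragments, and Aldh1l1 has its lowest in adult fragments.

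Tfpi, the inhibitor of the tissue factor complex, had values of 9.78, 10.13 and 10.21 in adult fragments, 12.08, 11.75 and 11.82 in embryonic fragments, and 8.92, 8.74 and 8.79 in rest of brain. The groups did not overlap. Tfpi was 8.39-fold higher in embryonic fragments than in rest of brain (11.89 ± 0.17 against 8.82 ± 0.09, limma adjusted p = 1.73e-07). It was 3.60-fold lower in adult than in embryonic fragments (10.04 ± 0.23 against 11.89 ± 0.17, limma adjusted p = 1.20e-05). Between the ages F3 and its inhibitor therefore differed in opposite directions.

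The 4 probe sets of Tfpi gave the same direction with unequal sizes. Between adult and embryonic fragments the log2 differences were -1.85 ± 0.13 for probe set 1451791_at, -0.58 ± 0.11 for 1438530_at, -2.17 ± 0.22 for 1451790_a_at and -1.22 ± 0.23 for 1452432_at (± SE, from a limma fit over all probe sets). Between embryonic fragments and rest of brain they were 3.07 ± 0.13, 4.34 ± 0.11, 3.34 ± 0.22 and 5.001 ± 0.23 in that order. The brightest pair, 1451791_at and 1438530_at, was set against each other within each array in a test chosen after these values were seen. Their age differences were apart by 1.26 ± 0.16 (limma adjusted p = 4.19e-04 over 5273 genes with a like pair), and 50.4% of those genes passed the same test. The sources used here do not say which Tfpi transcripts each probe set detects.

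**Figure D3:**
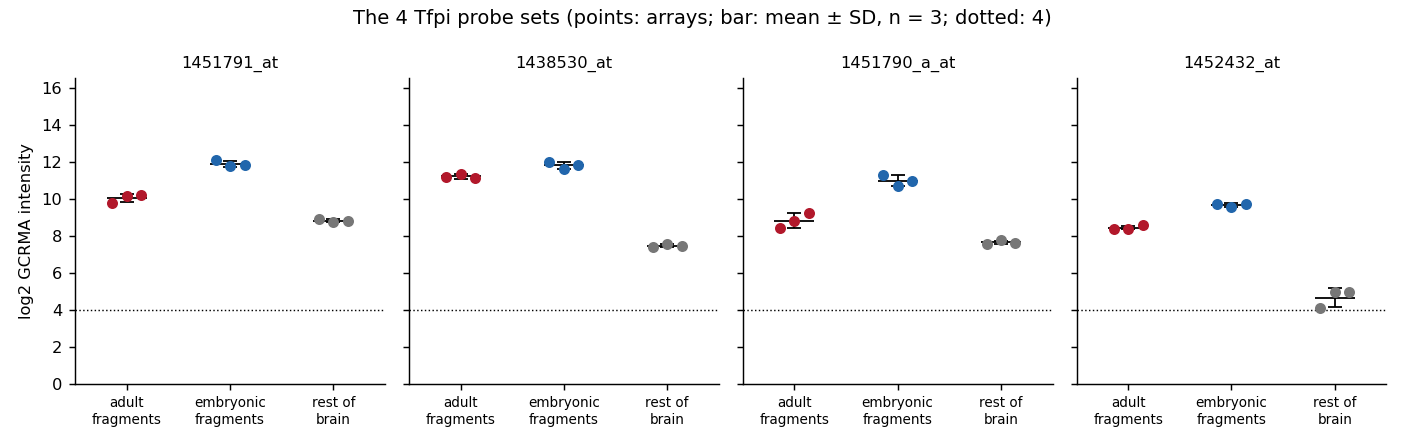
Log2 GCRMA intensity of the 4 Tfpi probe sets, with adult fragments, embryonic fragments and rest of brain from left to right; points are arrays, bars the mean ± SD (n = 3), and the dotted line a value of 4. All 4 are highest in embryonic fragments, and adult fragments come closest to that level in 1438530_at, with a difference of -0.58.

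Thbd, the thrombin receptor that starts the protein C brake, had values of 12.62, 11.78 and 11.56 in adult fragments, 9.85, 9.77 and 9.95 in embryonic fragments, and 8.05, 7.47 and 7.20 in rest of brain. The 3 groups formed separate steps with no overlap. Thbd was 4.38-fold higher in adult than in embryonic fragments (11.99 ± 0.56 against 9.85 ± 0.09, limma adjusted p = 3.34e-04). It was 4.86-fold higher in embryonic fragments than in rest of brain (9.85 ± 0.09 against 7.57 ± 0.43, limma adjusted p = 1.30e-04). Between the ages, smooth muscle markers were higher in adult fragments in 4 of 5 cases and lower in 1, with a summed level of 15.5 to 15.7 in adult and 12.4 to 12.9 in embryonic fragments (log2 of the sum). Their part in the Thbd difference was not tested. Of the 10 endothelial markers, 2 were higher and 4 lower in adult fragments. Over all tested genes 27.4% were called higher and 29.7% lower between the ages.

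Procr, which holds protein C at the endothelial surface, had values of 10.9997, 12.30 and 13.06 in adult fragments, 13.28, 12.86 and 12.86 in embryonic fragments, and 4.98, 5.002 and 5.13 in rest of brain. Adult fragments spread over more than the other groups, and replicate 3 of them lay among the embryonic fragments. Procr was 249-fold higher in embryonic fragments than in rest of brain (12.997 ± 0.24 against 5.04 ± 0.08, limma adjusted p = 4.13e-07). On the log2 scale this difference was 7.96, and it ranged from 7.39 to 8.03 over the alternative settings given below. Between adult and embryonic fragments the difference was -0.88 (95% interval -1.87 to 0.11, limma adjusted p = 0.117) and did not pass. Without adult fragments replicate 3 it was -1.35 and passed (limma adjusted p = 0.0116), as it did with array weights (-1.18, limma adjusted p = 0.0213). Without adult fragments replicate 1 it shrank to -0.32 (limma adjusted p = 0.304). Its only probe set carries a suffix for probes shared between transcripts.

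Plat, the tissue-type plasminogen activator, had values of 13.53, 13.58 and 13.85 in adult fragments, 12.55, 12.38 and 12.45 in embryonic fragments, and 12.45, 12.14 and 11.92 in rest of brain. Adult fragments stood above the other groups, which overlapped. Plat was 2.28-fold higher in adult than in embryonic fragments (13.65 ± 0.17 against 12.46 ± 0.09, limma adjusted p = 2.23e-04). Between embryonic fragments and rest of brain the difference was 0.29 (95% interval -0.06 to 0.64, limma adjusted p = 0.127). It passed without rest of brain replicate 1 (0.43, limma adjusted p = 0.0369) and was smaller without rest of brain replicate 3 (0.17, limma adjusted p = 0.387). Neurons make this activator too, and all 6 neuronal markers were lower in embryonic fragments than in rest of brain. Over all tested genes 37.2% were called lower in that comparison. Between adult and embryonic fragments 0 of the 6 were higher and 3 lower (median -1.57), where 27.4% and 29.7% of all tested genes were. The part of neuronal RNA in the Plat values was not tested.

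Plau, the urokinase-type activator, had values of 2.57 to 2.58 in adult fragments, 2.57 to 3.59 in embryonic fragments and 2.57 to 2.61 in rest of brain. All lie at background, also on its other probe set, so no fold is given.

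Of the 8 genes, 4 were called higher in embryonic fragments than in rest of brain, 1 was called lower, 1 was not called and 2 were not tested, where 28.9% of all tested genes were called higher and 37.2% lower. Between adult and embryonic fragments 4 were called higher and 1 lower, where 27.4% and 29.7% of all tested genes were. The 2 comparisons share the embryonic fragment arrays. All 5 choroid plexus markers were also higher in adult than in embryonic fragments (median 2.62), with a summed level of 16.8 to 16.9 in adult fragments, 15.7 to 16.2 in embryonic fragments and 16.2 to 16.3 in rest of brain (log2 of the sum). Their part in the differences of Vwf, F3, Thbd and Plat between the ages was not tested. Between adult fragments and rest of brain 5 were called higher and 0 lower, where 33.1% and 42.9% of all tested genes were. In that comparison Vwf, Procr, Thbd, Plat and Tfpi had log2 differences of 11.19, 7.08, 4.41, 1.48 and 1.22, and F3 was the tested gene not called.

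**Figure D4:**
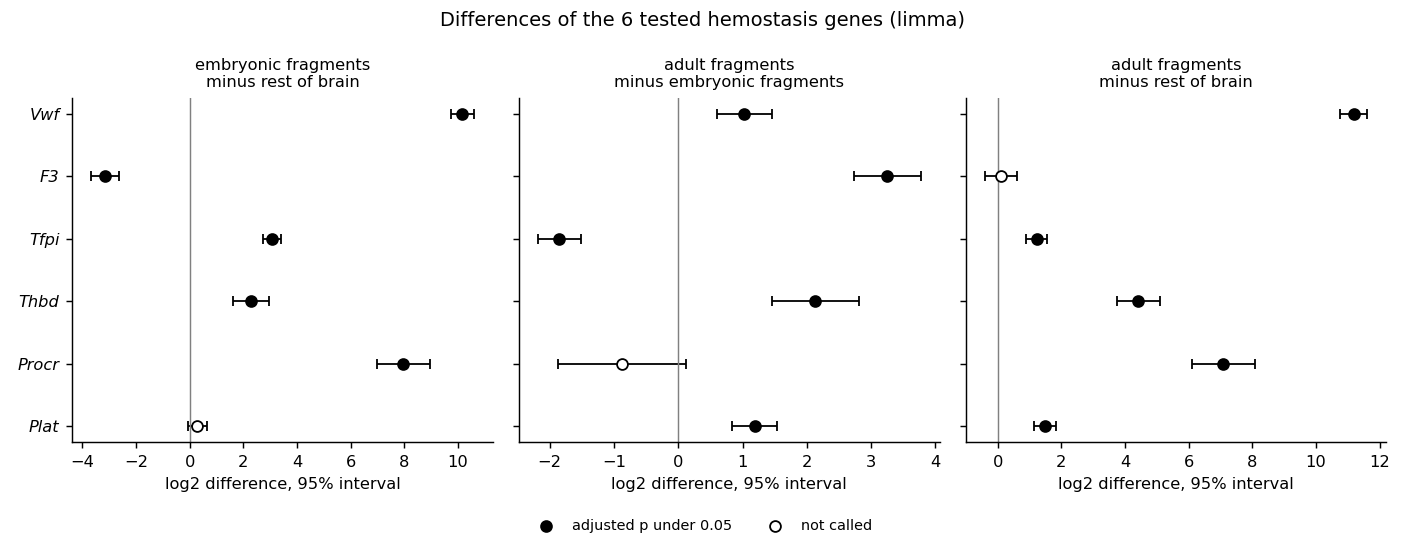
Log2 differences between groups with 95% intervals for the 6 genes that passed the filter, in 1 panel per comparison; filled points passed at a limma adjusted p under 0.05 and open points did not. F3 lies left of 0 between embryonic fragments and rest of brain and right of 0 between the ages, while Tfpi does the opposite.

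The rest of the pathway was followed in 4 lists of 55 genes, 24 of which passed the filter. Among 23 clotting factors, their inhibitors and receptors, 6 passed it. Of these 5 were higher and 0 lower in embryonic fragments than in rest of brain (median log2 difference 3.13, against -0.10 over all tested genes), and 2 were higher and 3 lower in adult than in embryonic fragments (median -0.41, against -0.02). Among all tested genes 28.9% were called higher and 37.2% lower in the first of these comparisons, and 27.4% and 29.7% in the other. F5, clotting factor V, had values of 10.64, 10.72 and 9.33 in adult fragments and lay under 4 on every array of embryonic fragments and of rest of brain. It was therefore at least 75.1-fold higher in adult than in embryonic fragments (limma adjusted p = 4.94e-07). F13a1, the fibrin cross-linking subunit, which macrophages also make, had values of 8.06, 7.88 and 7.76 in adult fragments and 13.05, 14.18 and 14.32 in embryonic fragments, with no overlap. It was 61.9-fold lower in adult fragments (limma adjusted p = 1.29e-06) and 20.6-fold higher in embryonic fragments than in rest of brain (limma adjusted p = 2.91e-06). Mrc1, a receptor of macrophages around vessels, had values of 10.20, 10.13 and 9.58 in adult fragments, 14.13, 14.95 and 15.36 in embryonic fragments, and 10.16, 10.18 and 9.74 in rest of brain. Of the 6 microglia and macrophage markers, which include it, all 6 were higher in embryonic fragments than in rest of brain, and 1 was higher and 1, Mrc1, lower in adult than in embryonic fragments. The part of macrophage RNA in the F13a1 values was not tested. Pros1, protein S, the cofactor of activated protein C, was 1.97-fold higher in adult than in embryonic fragments. Tfpi2, a relative of Tfpi, was 3.38-fold lower in adult than in embryonic fragments and at least 15.99-fold higher in embryonic fragments than in rest of brain. Against rest of brain, adult fragments were at least 75.1-fold higher for F5 and had log2 differences of 4.37 for Pros1, and of -1.59 for F13a1 and -0.68 for F2r, a thrombin receptor.

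Of 13 genes of fibrinolysis 6 passed the filter, with 2 higher and 2 lower in embryonic fragments than in rest of brain (median -0.44) and 3 higher and 2 lower in adult than in embryonic fragments (median 0.21). Over all tested genes 28.9% were called higher and 37.2% lower in the first comparison, and 27.4% and 29.7% between the ages. Serpini1, the neuronal inhibitor of the Plat product, had values of 10.17, 10.30 and 10.15 in adult fragments, 6.33, 7.47 and 7.12 in embryonic fragments, and 11.30, 11.78 and 11.51 in rest of brain. The groups did not overlap, and embryonic fragments were lowest, as they were for F3. Serpini1 was 9.44-fold higher in adult than in embryonic fragments (limma adjusted p = 1.52e-05), and Plgrkt, a plasminogen receptor, 2.04-fold. Of 6 neuronal markers, 0 were higher and 3 lower in adult than in embryonic fragments (median -1.57). The part of neuronal RNA in the Serpini1 values was not tested. Plaur, the receptor of the Plau product, was 3.46-fold lower in adult than in embryonic fragments (limma adjusted p = 0.00140), and Anxa2, which binds plasminogen at the cell surface, 1.82-fold. Against rest of brain, embryonic fragments had differences of 3.01 for Plaur, 2.89 for Anxa2, -4.56 for Serpini1 and -0.98 for Plgrkt. Adult fragments had 2.02 for Anxa2, 1.22 for Plaur, -1.32 for Serpini1 and -1.17 for Lrp1, a receptor that clears the activators.

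Of 14 genes of platelet adhesion and of the Weibel-Palade bodies, the granules that store Vwf, 9 passed the filter. In embryonic fragments 5 were higher and 2 lower than in rest of brain (median 2.65), and in adult fragments 3 were higher and 2 lower than in embryonic ones (median 0.00). Of all tested genes 28.9% were called higher and 37.2% lower in the first comparison. Between the ages the shares were 27.4% and 29.7%, and the counts of this list lie near them. Mmrn1 and Mmrn2, a pair of multimerins, differed between the ages in opposite directions. Mmrn1 had values of 3.18, 4.31 and 3.39 in adult fragments, 11.86, 10.86 and 11.33 in embryonic fragments, and 3.29, 3.18 and 2.91 in rest of brain, so that it stood above background in embryonic fragments and on 1 adult array. It was lower in adult than in embryonic fragments by -7.72 on the log2 scale (limma adjusted p = 3.27e-07), a size that leans on 2 adult arrays under 4 and came to -6.51 with the offset of 16, and at least 163-fold higher in embryonic fragments than in rest of brain. Mmrn2, of endothelium, was 2.31-fold higher in adult than in embryonic fragments (limma adjusted p = 0.0196). It was higher than rest of brain by 9.29 in embryonic fragments and by 10.49 in adult fragments, with rest of brain under 4 on 1 of 3 arrays. Angpt2, a ligand stored with Vwf, was 2.54-fold lower in adult than in embryonic fragments (limma adjusted p = 9.18e-05). Rab3d and Rab27a, which act in granule release, were 7.31-fold and 2.57-fold higher in adult than in embryonic fragments. Rab3d and Rab3b were lower in embryonic fragments than in rest of brain by -2.09 and -1.63, and Rab3b was lower in adult fragments than in rest of brain, by -1.63. Rab3b had values of 4.08 to 4.11 in fragments of either age, just above background. Both of its differences came to -1.06 with the offset of 16. Sytl4, a partner of Rab27a, was at least 10.1-fold higher in fragments of either age than in rest of brain, and averaged 7.33 at both ages.

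All 3 tested genes of the endothelial brake on platelets were higher in embryonic fragments than in rest of brain (median 4.11), and 2 of 3 were higher in adult than in embryonic fragments (median 1.42). Over all tested genes 28.9% and 27.4% were called higher in these comparisons. Entpd1, which breaks down ADP, had values of 12.79, 12.68 and 12.80 in adult fragments and 10.46, 11.10 and 11.05 in embryonic fragments, with no overlap, a 3.70-fold difference (limma adjusted p = 3.02e-05). Ptgis, prostacyclin synthase, was 2.68-fold higher in adult than in embryonic fragments (limma adjusted p = 0.00391). Nos3, the endothelial nitric oxide synthase, was higher than rest of brain by 8.35 in embryonic fragments and by 7.65 in adult fragments, with rest of brain under 4 on 1 of 3 arrays. Between the ages its difference was -0.70 (limma adjusted p = 0.145).

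**Figure D5:**
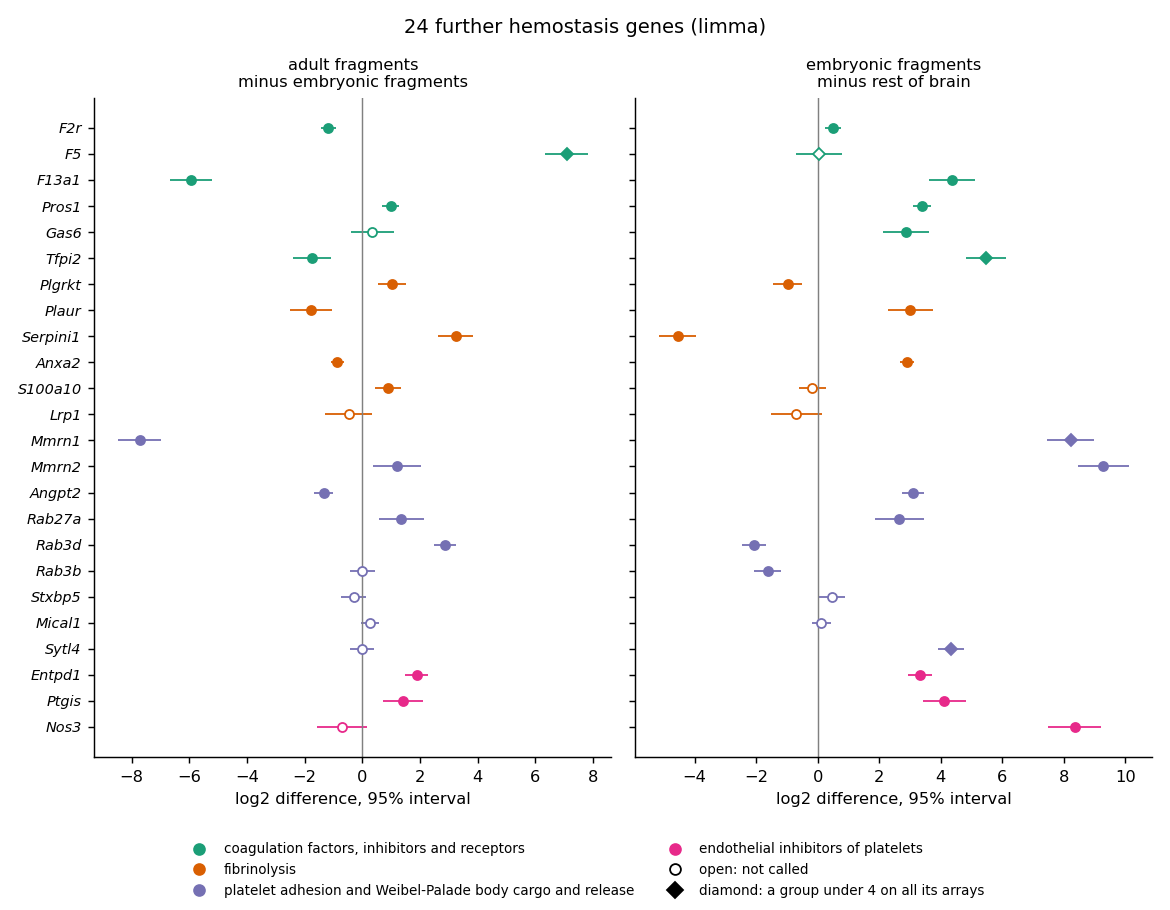
Log2 differences with 95% intervals for the 24 further hemostasis genes that passed the filter, adult minus embryonic fragments on the left and embryonic fragments minus rest of brain on the right; colours give the list, open points did not pass at a limma adjusted p under 0.05, and diamonds have a group under 4 on all its arrays, so that their plotted size is no measured size. Between the ages F5 is such a diamond, at least 75.1-fold higher in adult fragments, and Mmrn1 (-7.72, near background in adult fragments) and F13a1 (-5.95) lie farthest to the left.

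For each of the 6 tested genes, the 3 genes with the most similar pattern were taken as those with the smallest root mean square difference over the 9 arrays, each gene centred on its own mean. They were Cyyr1, Adgrl4 and Sox17 for Vwf (0.307 to 0.346 log2 units), and Grap, Ecscr and Gimap1 for Procr (0.216 to 0.434). For Thbd they were Mcc, Ccdc82 and Esyt2 (0.301 to 0.337), and for Tfpi Fut4, Ptges and Sh2d3c (0.193 to 0.233). For F3 they were P4htm, Mapk4 and Sfxn5 (0.255 to 0.329), which averaged 9.46, 7.87 and 9.94 in adult fragments, 6.05, 4.96 and 6.38 in embryonic fragments, and 9.45, 8.03 and 9.91 in rest of brain. For Plat they were Mtmr10, Dnajb9 and Dnaja3 (0.131 to 0.145).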

How the data were processed

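The deposited table holds a log2 value for each probe set on each array. Per the submitters' processing notes, the authors used GCRMA 2.6.0 and R 2.4.1. That the scale is log2 was read from the range of the values, 0.767 to 16.8. Scanner files were not analysed here. No pair of arrays was identical, and replicates of a group are separate samples per the labels.

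Of 45101 probe sets, 34958 name 1 gene, 932 several, and 9211 are unnamed here. Each gene was read from the probe set that was brightest on average across the 9 arrays, and was tested if 3 or more arrays reached 4. The comparisons used limma 3.58.1 (R 4.3.3) with all 9 arrays in 1 fit, 2-sided, with Benjamini-Hochberg adjustment over 12009 genes and a threshold of 0.05. A group under 4 on all 3 arrays was at background, and a fold against it is a bound against 4. On simulated data for embryonic fragments against rest of brain with 12009 genes, 100 genes were changed by 1 and 100 by 2 on the log2 scale. Of these 60% and 91% were recovered, with 10 false calls. In the data 7939 genes were called in this comparison, far more than were changed there. These rates therefore do not give the share of real changes that the reported fit recovers. The members and lists were chosen with earlier results of these data known.

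From each further list, the 2 called genes with the largest difference in each direction were named per comparison. Same-numbered embryonic fragments and rest of brain deviated together from their group means (r of 0.194 to 0.217 across tested genes), so the numbers were taken to pair these samples. The reported fit has no replicate block, so its p-values do not use that pairing. With the block and these 2 groups alone, Vwf had a limma adjusted p = 4.85e-05 in place of 1.01e-09. Such joint deviation did not hold between adult and embryonic fragments (-0.08 to 0.214) or between adult fragments and rest of brain (-0.09 to 0.129).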

Additional observations from a re-analysis of the deposited data

How the results depend on the processing

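Over 22 alternative settings the 18 differences of the 6 tested genes kept their call in 375 of 378 cases. The 3 exceptions, which passed where the reported fit did not, were Procr between the ages without adult fragments replicate 3 and with array weights, and Plat in the embryonic comparison without rest of brain replicate 1, as given above. No called difference lost its call or changed direction, and F3 between adult fragments and rest of brain, not called, ranged from -0.03 to 0.29. Procr could not be tested without probe sets shared between transcripts, nor Plat by its other probe set, which lay under the filter. Leaving out 1 array at a time gave 5 to 6 called members between embryonic fragments and rest of brain, 5 to 6 between the ages and 5 between adult fragments and rest of brain. With the replicate block and the 2 groups fitted alone, 5 members were called in each comparison, and the block changed no member's call. In the further lists the next probe set of each gene left 12 of 18 tested genes called between adult fragments and rest of brain, in place of 21 of 24, where fewer genes passed the filter. The next probe set moved Tfpi to 4.34, -0.58 and 3.76 in the embryonic, age and adult against rest of brain comparisons. Vwf and F3 moved with an offset on low values, since a group of each lay near background, and adult fragments minus rest of brain for Vwf then came to 10.08. Over the settings Procr ranged from 7.39 to 8.03 in the embryonic comparison. Between adult fragments and rest of brain it ranged from 6.52 to 7.64. Scaling by cyclic loess shifted the median of all genes by 0.14 between adult fragments and rest of brain. Values at the dim end, among them all those of F8 and Plau, cannot be ordered.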

Other observations

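Adult fragment arrays differed among themselves in the protein C genes. Replicate 1, a male, had the highest Thbd value (12.62) and the lowest Procr value (10.9997) of the 3, and replicate 3, also a male, had the lowest Thbd (11.56) and the highest Procr (13.06). F5 had 10.64 and 9.33 on the same arrays. The SD of Procr was 1.04 in adult fragments, 0.24 in embryonic fragments and 0.08 in rest of brain (n = 3 each). The venous endothelial markers, 6 genes among them Ackr1 and Vcam1, summed to 14.7 to 15.5 in adult fragments, 14.1 to 14.2 in embryonic fragments and 13.2 to 13.4 in rest of brain (log2 of the sum). That sum follows Vcam1, the brightest of them in adult fragments (14.74, against 10.78 in embryonic fragments), and by gene 2 of the 6 were higher and 3 lower in adult than in embryonic fragments (median -0.26). Over all tested genes 27.4% were called higher and 29.7% lower between the ages. On adult replicates 1, 2 and 3, where Procr had 10.9997, 12.30 and 13.06, the list did not move as one. Ackr1, a chemokine receptor of venules, had 8.70, 9.32 and 10.78, and Slc38a5 had 11.87, 12.07 and 12.87. Icam1 had 10.97, 11.16 and 11.98, and Vcam1 had 14.29, 14.95 and 14.99. These rose in the order of Procr. Nr2f2, with 9.87, 10.43 and 9.82, and Ephb4, with 7.25, 6.25 and 7.27, did not. The order was looked at after the values were seen. These spreads are over 3 arrays and were not tested.

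The other Plat probe set, 1458553_at, had values of 4.54, 4.39 and 3.75 in adult fragments and of 3.54 to 3.62 in the embryonic groups, at or near background. On 1 embryonic fragment array, replicate 3, Plau reached 3.59, and on no other array did it exceed 2.61.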
